A study of Mus musculus with 2 samples.

Results

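The members described here are the noncoding RNA transcripts that a mouse expression array can read: probes that the scanner files assign to a RefSeq accession beginning NR_, with an unflagged spot on both arrays and a signal well above background on at least 1 of them. Of 1216 NR_ probes with an unflagged spot on both arrays, 779 were above background, out of 30435 probes above background in the whole experiment. They stood for 679 genes, and each gene was read by its brightest probe. The arrays compared the spleen of female mice given phosphate-buffered saline (PBS) with that of female mice given silica (SiO2), whose spleens the submitters call remodelled. Each group was 1 pool of 5 samples, harvested on day 19 after the first injection and hybridised to 1 one-colour Agilent array. Strain and age are not given in the labels. With 1 array per group there was no test of any difference, and a difference is described by its size, at least 2-fold or at least 4-fold. The only error the files hold is that of repeated spots. For 206 probes spotted 10 times, the standard deviation of the log2 difference was 0.0585 in the median probe and 0.204 at the 95th percentile, which says nothing of animals or labelling.

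Noncoding transcripts do many things without being translated. Long noncoding RNAs can recruit chromatin regulators, scaffold nuclear bodies or hold open the chromatin they are transcribed from, and antisense transcripts run across a coding gene on the opposite strand. Host transcripts carry small RNAs that are cut out of them, either small nucleolar RNAs (snoRNAs), which guide the modification of ribosomal RNA, or microRNAs (miRNAs), which repress messenger RNAs through a seed at their 5′ end. Transcribed pseudogenes are copies of coding genes that have lost the open reading frame. The adult mouse spleen filters blood, holds lymphocytes in its white pulp and can make red cells and granulocytes in its red pulp.

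The sequences below carry the comparisons that follow. The first 4 are the promoter windows of single genes that differed between the arrays, running from 250 bases before to 50 bases after the start, from RefSeq (GRCm38.p6). Capitals mark matches on either strand to a GATA factor site (spelled AGATAA, with TGATAA as its variant form), to the CCAAT box (spelled CCAAT) or to the TATA box (spelled TATAAA). No match to the fifth motif searched, a CACC box (CCACACCC), lay in these 4 windows.
Lockd (chr6:134928842-134929141, + strand): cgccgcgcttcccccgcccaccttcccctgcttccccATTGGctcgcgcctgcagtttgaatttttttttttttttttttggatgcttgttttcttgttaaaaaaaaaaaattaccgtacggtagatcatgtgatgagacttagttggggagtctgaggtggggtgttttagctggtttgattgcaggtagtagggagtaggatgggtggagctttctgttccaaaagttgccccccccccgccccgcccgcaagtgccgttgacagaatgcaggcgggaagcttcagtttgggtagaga
Gm9895 (chr19:29067051-29067350, + strand): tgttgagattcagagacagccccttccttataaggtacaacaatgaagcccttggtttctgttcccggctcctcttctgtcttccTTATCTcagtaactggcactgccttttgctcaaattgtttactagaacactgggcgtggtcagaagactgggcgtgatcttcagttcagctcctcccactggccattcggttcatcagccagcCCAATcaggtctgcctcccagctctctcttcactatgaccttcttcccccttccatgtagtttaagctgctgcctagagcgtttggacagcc
F930017D23Rik (chr10:43593177-43593476, + strand): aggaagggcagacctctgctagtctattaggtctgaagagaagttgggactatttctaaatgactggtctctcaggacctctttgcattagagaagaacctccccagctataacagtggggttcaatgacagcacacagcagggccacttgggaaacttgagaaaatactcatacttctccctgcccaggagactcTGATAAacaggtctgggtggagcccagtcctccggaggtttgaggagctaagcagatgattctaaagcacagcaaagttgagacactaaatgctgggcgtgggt
Gdap10 (chr12:32823866-32824165, + strand): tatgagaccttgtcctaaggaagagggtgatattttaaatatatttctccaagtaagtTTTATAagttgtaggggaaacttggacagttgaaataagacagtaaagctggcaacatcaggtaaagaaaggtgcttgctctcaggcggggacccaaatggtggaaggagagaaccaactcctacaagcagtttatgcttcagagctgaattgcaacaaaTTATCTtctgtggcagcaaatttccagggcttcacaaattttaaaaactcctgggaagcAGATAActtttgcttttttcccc

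The next 2 windows show noncoding genes that start head to head with a coding gene. Capitals mark the stretch from the start of the noncoding gene to that of its partner on the other strand, with both start bases included. The starts lie 67 bases apart for Med9os and Med9 and 187 bases apart for Map2k3os and Map2k3.
Med9os (chr11:59948098-59948397, - strand): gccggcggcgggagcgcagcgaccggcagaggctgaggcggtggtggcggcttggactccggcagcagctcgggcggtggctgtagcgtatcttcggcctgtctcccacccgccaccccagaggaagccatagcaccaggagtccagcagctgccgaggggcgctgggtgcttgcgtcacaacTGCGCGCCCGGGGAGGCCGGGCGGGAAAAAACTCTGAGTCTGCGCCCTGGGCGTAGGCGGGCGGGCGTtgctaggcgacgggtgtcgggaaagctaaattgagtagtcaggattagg
Map2k3os (chr11:60931818-60932117, - strand): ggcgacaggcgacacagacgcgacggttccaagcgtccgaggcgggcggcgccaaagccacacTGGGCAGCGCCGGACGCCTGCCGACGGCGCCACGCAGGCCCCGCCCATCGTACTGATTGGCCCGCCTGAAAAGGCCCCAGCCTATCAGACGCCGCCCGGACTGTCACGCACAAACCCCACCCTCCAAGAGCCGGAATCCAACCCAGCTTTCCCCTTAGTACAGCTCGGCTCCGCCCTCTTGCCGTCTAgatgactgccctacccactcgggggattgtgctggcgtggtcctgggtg

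Mature miRNAs of 6 measured host genes are given to show which small RNAs lie in these transcripts. The seed (bases 2 to 8) is in capitals. The hosts are F630028O10Rik for miR-223, Mir22hg for miR-22, Dleu2 for miR-16, Mir17hg for miR-92a, Dnm3os for miR-199a and miR-214, and Meg3 for miR-770.
mmu-miR-223-3p: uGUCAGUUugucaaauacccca
mmu-miR-22-3p: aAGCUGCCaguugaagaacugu
mmu-miR-16-5p: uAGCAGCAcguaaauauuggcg
mmu-miR-92a-3p: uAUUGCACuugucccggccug
mmu-miR-199a-5p: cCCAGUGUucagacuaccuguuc
mmu-miR-199a-3p: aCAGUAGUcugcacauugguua
mmu-miR-214-3p: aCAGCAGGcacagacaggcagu
mmu-miR-770-5p: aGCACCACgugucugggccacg
The 14 mature sequences matched by position to these hosts had 14 different seeds. They are not every miRNA that the hosts carry, since for Mir17hg only miR-92a was matched. Sharing of seeds within a host was therefore not settled. The arrays read the long host transcripts only and not the mature miRNAs.

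Signals are the scanner software's processed intensities before scaling, and a log2 difference is the SiO2 value minus the PBS value after each array was set against its own 75th percentile. The PBS pool had a 75th percentile of 668, and the SiO2 pool one of 470. A transcript with equal signals on both arrays therefore has a log2 difference of 0.51. Where a gene was above background on 1 array only, its dim side was set to the lowest value that counted as above background there (a signal of 7.37 in PBS and 6.14 in SiO2), or to its own signal where that was higher. The difference is then written as at least N-fold. The share of spots above background was 75.5% for PBS and 74.9% for SiO2, and none was saturated. Markers fitted the label of spleen: 7 of 7 B cell markers and 5 of 5 transcription factors of spleen stroma were above background on both arrays. Several other marker lists differed between the pools. Erythroid markers were at least 2-fold higher in SiO2 for 11 of 12 genes (median log2 difference 1.79), neutrophil markers for 7 of 9 (2.34) and fibroblast markers for 4 of 7 (1.58). Mesothelial markers were at least 2-fold lower for 7 of 8 (-3.84) and natural killer cell markers for 5 of 6 (-1.90). In bulk tissue, fewer cells of a type and less RNA per cell cannot be told apart.

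Noncoding transcripts were dimmer than coding ones. Of the NR_ probes, 64.1% were above background on at least 1 array, against 81.3% of 26518 probes for coding RefSeq transcripts (NM_). The median signal of the noncoding probes above background was 46.7 in PBS and 36.7 in SiO2, and that of the coding probes was 236 and 172. Genes with a mean signal under 20 made up 32.7% of the noncoding set and 14.5% of the coding set, while 11.0% and 29.3% had a mean signal of 1000 or more. Between these ends, 23.3% of noncoding and 11.7% of coding genes lay from 20 to 50, 20.3% and 18.5% from 50 to 200, and 12.7% and 26.0% from 200 to 1000. At the edge of detection, the dimmest noncoding probe called above background had a signal of 7.72 in PBS and 6.29 in SiO2, and the brightest one not called so had 9.70 and 7.59. Of the noncoding genes, 601 were above background on both arrays, 46 in PBS only and 32 in SiO2 only.

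The brightest member was a ribosomal RNA, which the cell makes in large excess over messenger RNA. Rn28s1, the 28S ribosomal RNA, had signals of 91241 in PBS and 78923 in SiO2, a log2 difference of 0.30. Gm12070 had 40469 and 35368 (0.31), and Rn4.5s, a small RNA, had 29967 and 28545 (0.44). These, with Gm5766, Gm8580, Gm6548, Gm15772 and I730030J21Rik, were the 8 with the highest mean level, and their log2 differences ran from -0.12 to 0.44. Neither array separated from the other by 2-fold in any of them. The RNA component of RNase MRP, Rmrp, was close to even after scaling, with signals of 434 and 332 (0.12).

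Among the 679 noncoding genes, 43 (6.33%) were at least 2-fold higher in SiO2 and 16 (2.36%) at least 2-fold lower. Over all 16774 named genes, 6.54% were at least 2-fold higher and 3.74% at least 2-fold lower, and over the 16144 coding genes 6.55% and 3.79%. At 4-fold, 9 noncoding genes (1.33%) were higher and none was lower, against 0.936% and 0.489% of all named genes. The share on the higher side was thus near the background. The median log2 difference was 0.15 for noncoding genes and 0.02 for coding genes, with 414 noncoding genes above 0 and 265 below. Genes with a mean signal under 20 had a median of 0.20 in both the noncoding and the coding set. From 200 to 1000 the medians were -0.08 and -0.05. By signal band, noncoding genes at least 2-fold higher made up 4.50% under 20, 8.23% from 20 to 50 and 9.42% from 50 to 200. They made up 3.49% from 200 to 1000 and 5.33% from 1000 up. In the coding set the shares of the same bands were 6.92%, 6.03%, 7.20%, 6.49% and 6.24%. The noncoding shares rest on 10, 13, 13, 3 and 4 genes. The split between higher and lower depended on the scaling: with the SiO2 array shifted by 0.40 so that B and T cell markers centred on 0, 108 were higher and 7 lower. It depended also on the background correction. With normexp, a model-based correction with an offset of 50 that draws dim values together, 14 of the 43 and 4 of the 16 still differed at least 2-fold.

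Among the long intergenic RNAs, those with the largest difference at high signal were Redrum and Lockd, both known as transcripts of red cell precursors. Redrum, a transcript of erythroid cells on chromosome 18, had a signal of 950 in PBS and 3295 in SiO2 and was 4.93-fold higher after scaling (log2 2.30, and 2.17 with normexp). No coding gene of the RefSeq table lay within 10 kb of it. Lockd, transcribed just downstream of the cell cycle inhibitor gene Cdkn1b, had 893 and 2622 and was 4.17-fold higher (log2 2.06, and 1.94 with normexp). Cdkn1b, the coding neighbour of Lockd, had 4010 and 4337 (0.62), so the noncoding gene differed more than its neighbour. In the same pools, the erythroid marker Epb42, a protein of the red cell membrane skeleton, was 6.05-fold higher. The median signal of the 12 erythroid markers was 2177 in PBS and 4667 in SiO2, and Sptb was the only one of them not above background in PBS. The part of erythroid cells in the values of Redrum and Lockd was not tested.

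Other intergenic transcripts at least 2-fold higher were mostly dim. Gm9895, whose window is printed above, had signals of 145 and 385 (log2 1.92) and stood alone within 10 kb. F930017D23Rik had 23.3 and 77.1 (2.24), and its adjacent gene Cd24a, which encodes a surface antigen of red cell and granulocyte precursors, had 17687 and 27179 (1.13). This was 1 of 3 pairs in which both partners were at least 2-fold higher. 1700047M11Rik had 19.8 and 68.4 (2.29), beside Fbxo28 at -0.17. 1700001K23Rik, next to the membrane skeleton gene Add3 (-0.41), was above background in SiO2 only, with 6.68 and 27.0, and was at least 5.21-fold higher. Gm6936 (34.1 and 89.0), AU022793 (23.2 and 60.2) and 3110009F21Rik (7.29 in PBS, not above background, and 18.7 in SiO2) had log2 differences of 1.89, 1.88 and at least 1.85. Of these 7, the normexp differences of Gm9895, F930017D23Rik, 1700047M11Rik and Gm6936 stayed above 1 (1.62, 1.21, 1.22 and 1.13), and those of 1700001K23Rik, AU022793 and 3110009F21Rik were 0.92, 0.96 and 0.64.

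Among higher transcripts with a known role, Nron and Mexis were just past 2-fold. Nron, which holds the transcription factor NFAT in the cytoplasm and lies antisense to Mvb12b (0.61), had 150 and 233 (log2 1.15). Mexis, a macrophage transcript that supports expression of the cholesterol exporter Abca1, had 114 and 171 (1.09). With normexp both fell short of 2-fold, at 0.94 and 0.91. 9230102O04Rik, which overlaps Gata3, had 36.4 and 80.4 (1.65), while Gata3, a transcription factor of T cells, had 782 and 369 (-0.58). The noncoding transcript and the coding gene at this position thus lay on opposite sides of 0. With normexp the noncoding transcript was not 2-fold higher.

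The largest value of all belonged to 1 probe of a transcript, NR_001592, that the RefSeq table used here does not name. That probe had a signal of 8.57 in PBS, not above background, and 429 in SiO2, and was at least 71.2-fold higher (log2 6.15, and 3.22 with normexp). A second probe of the same accession had 24.7 in PBS and 21.1 in SiO2, a log2 difference of 0.28. The 2 probes disagree, so the size of the difference for this transcript is uncertain. Transcripts without a name, this one included, could not enter the gene lists described below. Another 2 unnamed accessions were bright. NR_033578 had 1207 and 2551 (1.59), and NR_033577 had 462 and 143 (-1.19). Of the 43 higher genes, 16 had a signal of at least 100 in SiO2, and of the 16 lower genes, 5 had one in PBS.

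On the lower side, Gdap10 and 6330407A03Rik were the brightest. Gdap10, a transcript that lies within the coding gene Nampt on the same strand, had 2510 in PBS and 611 in SiO2 and was 2.89-fold lower (log2 -1.53, and -1.48 with normexp). Nampt, the rate-limiting enzyme of NAD salvage, had 1541 and 727 (-0.58). Because the 2 genes share a strand, a probe for one may read the transcript of the other. 6330407A03Rik, which overlaps the Src-family kinase gene Lyn, had 2917 and 998 (-1.04), close to the value of Lyn itself (656 and 241, -0.94). Normexp left the value of 6330407A03Rik at -1.04.

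Most other lower genes had a low signal in SiO2. Gm14207, antisense to the Notch ligand gene Dll4 (-0.34), had 57.6 and 12.9 (log2 -1.65). 9530059O14Rik had 57.4 and 13.0 (-1.64), with no coding gene within 10 kb. A330093E20Rik, within whose bounds a snoRNA lies, had 78.4 and 20.1 (-1.46), and 1600029I14Rik, which overlaps Nme9 (-0.13), had 46.1 and 10.9 (-1.57). With normexp none of these 4 was 2-fold lower (-0.28, -0.27, -0.34 and -0.07). The genes 4930594C11Rik (-1.28), 4933432I03Rik (-1.19) and A830082N09Rik (-1.06), all with a SiO2 signal under 10, were above 0 with normexp, at 0.024, 0.14 and 0.085. Platr5 (33.2 and 11.4, -1.04) and Gm17745 (43.2 and 15.03, -1.01), both with no coding gene within 10 kb, were just past 2-fold. Among genes above background in PBS only, none reached 2-fold. Those with the largest bounds were Trim30e-ps1, with a signal of 16.7 in PBS and at least 1.92-fold lower, and E330013P04Rik, with 15.9 and at least 1.82-fold lower.

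Transcripts named for the opposite strand of a coding gene formed a list of 67 genes on the array, of which 44 were above background. Their median log2 difference was 0.39, with 35 above 0. Of the 44, 4 (9.09%) were at least 2-fold higher and none at least 2-fold lower, against 6.54% and 3.74% of all named genes. The median over all noncoding genes was 0.15. These transcripts were dim, with a median signal of 31.5 in PBS and 29.9 in SiO2. Zfhx2os, which overlaps the zinc finger homeobox gene Zfhx2, had 10.5 and 54.3 and was 7.32-fold higher (log2 2.87, and 1.11 with normexp). Zfhx2 itself had 1295 and 608 (-0.58). Med9os had 15.03 and 28.3 (1.42), while its divergent partner Med9, a subunit of the Mediator complex, had 2198 and 1603 (0.05). Their starts lie 67 bases apart, as printed above, and their differences were unequal. Fmr1os, head to head with the fragile X gene Fmr1 (0.07), was above background in SiO2 only, with 6.60 and 13.1, and was at least 2.53-fold higher. Foxd2os had 26.8 and 38.7 (1.03), beside Foxd2 with 140 and 86.6 (-0.19). With normexp, the 3 latter antisense genes were at 0.71, 0.62 and 0.62.

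By position, 7 of 101 transcripts antisense to a measured coding gene differed at least 2-fold, as did 4 of the 101 coding genes, against 10.3% of all named genes. No pair was among both, and counts this small say nothing about the pairing. Besides Nron and Gm14207, these were Gm10516 (156 and 304, log2 1.46) opposite the chromatin corepressor gene Rcor3 (0.72), and D330050I16Rik (47.4 and 83.5, 1.32) opposite the splicing factor gene Sart1 (0.31). 2610020C07Rik had 26.5 and 54.0 (1.53), opposite Gspt1, which encodes a translation termination factor (-0.21). R74862 had 15.4 and 26.7 (1.31), opposite the tetraspanin gene Cd81 (-0.24). The phosphatase gene Ppm1b (0.45) lay opposite 1110020A21Rik (39.9 and 60.7, 1.11). Of the 6 higher ones, Gm10516 was 2-fold higher also with normexp (1.17).

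At 16 loci the coding partner differed at least 2-fold, while the value of the antisense, divergent or overlapping transcript lay within 2-fold. Partners differed at least 2-fold in 4 of 101 antisense, 3 of 41 divergent and 0 of 11 same-strand pairs. They did so in 11 of 100 overlaps with no strand given, and 10.3% of all named genes did. Noncoding genes differed at least 2-fold in only 9.29% of all measured pairs, so the count of loci says nothing about the pairing. Il1b, the inflammatory cytokine, was 3.49-fold lower in SiO2 (2929 and 594, log2 -1.80), while Il1bos, antisense to it, had 21.2 and 21.1 (0.50). Map2k3, a kinase that activates p38, was higher (737 and 1276, 1.30), and Map2k3os, which starts 187 bases from it on the other strand, had 106 and 72.7 (-0.03). Slc30a10, a manganese exporter, was higher from a low level (14.4 and 73.3, 2.85), and the overlapping Gm2061 had 60.1 and 49.8 (0.24). Gpc3, a heparan sulfate proteoglycan, was lower (815 and 239, -1.26), and its antisense transcript A630012P03Rik had 31.0 and 27.7 (0.35). Smc2 and Ncapg2, condensin subunits that compact mitotic chromosomes, were at 1.10 and 1.15, and their divergent partners Smc2os and D430020J02Rik at 0.54 and 0.40. Orc5, a subunit of the origin recognition complex of DNA replication, was at 1.39, and the overlapping Gm15421, a bright transcript with 10039 and 7151, was at 0.02. The remaining 9 transcripts were Plekhd1os, Plxna4os1, Gm9767, Nlrp1c-ps, Gm8580, 9930014A18Rik, A430088P11Rik, Rnu3b1 and Kcnq1ot1. Of these, Plekhd1os (10.3 and 9.78), Plxna4os1 (11.3 and 1.48) and Gm9767 (10.6 and 7.54) were near background on both arrays. The value of Plxna4os1 (at least 0.38 lower) is a bound, and its log2 difference was -1.01 on the authors' deposited values and -2.43 with no bound set.

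Of the 679 genes, 113 were antisense to a coding gene, 45 divergent from one, 11 inside one on the same strand and 131 adjacent to one within 10 kb. A further 118 overlapped one with no strand given in the tables used here, 199 had none within 10 kb and 62 could not be placed. In 366 pairs the neighbour was measured too. The noncoding gene differed at least 2-fold either way in 34 pairs (9.29%) and the neighbour in 22 (6.01%), against 10.3% of all named genes. Both did so in the same direction in 3 pairs, and in opposite directions in none. These were F930017D23Rik with Cd24a, Gm16982 with Ap2a2, and Meg3 with Rtl1. Across the 366 pairs the log2 differences had a Pearson correlation of 0.19 and a Spearman correlation of 0.23, given as a description because the genes are not independent and all were read on the same 2 arrays. For the 101 antisense pairs the values were 0.10 and 0.15, for the 41 divergent pairs 0.15 and 0.19 and for the 113 adjacent pairs 0.17 and 0.12. The 11 pairs on the same strand had 0.65 and 0.65, and the 100 overlaps with no strand had 0.27 and 0.39. Gm16982 had 16.7 and 43.9 (1.90), and Ap2a2, an adaptor subunit of clathrin coats that it overlaps, had 208 and 376 (1.36). Without strand, the overlapping pairs may include probes that read the same transcript.

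Hosts of snoRNAs stood lower than the whole set in SiO2. All 11 hosts of the list were above background on both arrays, with a median log2 difference of -0.27, 8 below 0 and none beyond 2-fold. Snhg12 had 4509 and 1855 (-0.77), the lowest value of the list, and Dancr, which is also studied for its part in keeping progenitor cells undifferentiated, had 999 and 452 (-0.64). Snhg16 had 1701 and 790 (-0.60), with its second probe at -0.09, and Snhg6 had 4674 and 2408 (-0.45). On the other side of 0, Snhg1 had 213 and 201 (0.42) and Snhg10 had 255 and 263 (0.55). Signals of these hosts were well above the dim range, with a median of 466 in PBS and 288 in SiO2. With B and T cell markers centred on 0, the median of the list turned to 0.12. Over all 18 noncoding genes whose bounds hold a snoRNA, the median was -0.23, with 12 below 0 and 1, A330093E20Rik, at least 2-fold lower.

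Hosts of miRNAs differed among themselves. Of 13 on the array 10 were measured, with a median of 0.42 and 1 at least 2-fold higher. F630028O10Rik, the host of miR-223, a miRNA abundant in neutrophils, had 130 and 142 (log2 0.63), and was counted by position because it is not on the list. Among 9 neutrophil markers in the same pools, the differences ran from 0.38 for S100a9 to 3.13 for the granule protein gene Ngp, with 7 at least 2-fold higher. The part of neutrophils in the value of F630028O10Rik was not tested. Mir17hg, the host of the miR-17 to miR-92a cluster, which acts in B cell development, had 1681 and 1016 (-0.22). Dleu2, which carries miR-16, had 138 and 132 (0.44), and Mir22hg had 125 and 74.6 (-0.24). The signs of Mir17hg and Mir22hg turned, to 0.18 and 0.16, with B and T cell markers centred on 0. Dnm3os, the mesenchymal transcript antisense to Dnm3 (0.62) that carries miR-199a and miR-214, had 26.9 and 27.8 (0.55). Before scaling its signals were nearly equal.

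Imprinted transcripts are expressed from 1 parental allele. Meg3, made from the maternal allele and host of miR-770, was the 1 member of 6 that differed at least 2-fold, with 88.5 and 139 (log2 1.16). Its 3 probes ranged from 0.70 to 1.16, and with normexp the brightest gave 0.86. Rtl1, the gene overlapping Meg3, which is expressed from the paternal allele, was near background, with 3.38 and 11.7 (at least 1.17). Mirg, a miRNA host of the same imprinted domain, had 23.8 and 22.9 (0.45). Peg13, which is expressed from the paternal allele, was the lowest of the list, with 776 and 329 (-0.73). Kcnq1ot1, the antisense RNA that silences a cluster of imprinted genes, had 728 and 376 (-0.45), and its second probe gave -0.42. Kcnq1, the potassium channel gene in which it starts, had 59.3 and 18.4 (-1.18). Airn, which silences Igf2r, had 337 and 264 (0.15), with its second probe at -0.28, and Igf2r had 1579 and 1314 (0.25). The median of the 6 was 0.09, and the list held only transcripts with a name.

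The X inactivation centre gave no large difference in these female pools. Xist, which coats the inactive X chromosome, had 1394 and 1041 (log2 0.09), and its second probe gave 0.04. Jpx, an activator of Xist, had 13.5 and 10.7 (0.17), and Ftx, another noncoding gene of the centre, had 60.2 and 66.4 (0.65). The transcripts expressed in most tissues sat higher than the median of the set. Neat1, the scaffold of paraspeckles, had 4084 and 4280 (0.57), and Malat1, a transcript of nuclear speckles, had 1158 and 1179 (0.53). Tug1 had 448 and 507, a difference of 0.71 with a standard deviation of 0.029 over its 10 spots. Its other probes gave 0.32 and 0.18, so its probes differed by more than its spots. Norad, which binds Pumilio proteins, was at 0.18, and its dimmer probes gave -0.31, -0.06 and 0.05. By their brightest probe, all 6 measured members of this list were above 0, with a median of 0.55 and none beyond 2-fold. Before scaling, the signals of Malat1 and Neat1 lay close together on the arrays.

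Transcripts of immune and blood cells spanned the widest range of the lists apart from antisense genes and pseudogenes. The median over the 10 measured genes of this list was -0.23, with Lockd at least 2-fold higher and Morrbid at least 2-fold lower. Redrum, Mexis and Nron, described above and each at least 2-fold higher, were not on the list and are not in these counts. Morrbid, which prolongs the life of short-lived myeloid cells, had 38.4 and 13.2 (-1.03) and was at -0.01 with normexp. Mirt2, a transcript that restrains inflammatory signalling in macrophages, had 245 and 88.8 (-0.95), and Mirt1 was at -0.58. Pvt1, next to the Myc gene, had 577 and 273 (-0.57), but its second probe gave 0.11. In the same pools, 7 of 9 neutrophil markers were at least 2-fold higher, and red pulp macrophage markers had a median of -0.87, with 2 of 6 at least 2-fold lower. The part of these cells in the values of Morrbid and Mirt2 was not tested. Under normexp the median of the list was -0.02.

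Transcripts of mesenchyme numbered 9, and all were above background on at least 1 array, with a median of 0.39. On the authors' deposited values, for the members that have one, the median was -0.10. Fendrr, which is expressed in lateral mesoderm and lung mesenchyme, had 28.7 and 32.9 (0.70). Wt1os, antisense to the mesothelial transcription factor gene Wt1, was above background in PBS only, with 11.9 and 3.42, and was at least 0.45 lower on the log2 scale. Wt1 had 905 and 330 (-0.95). Of 7 fibroblast markers 4 were at least 2-fold higher, such as Col3a1, a fibrillar collagen (3726 and 9983, log2 1.93), while Dcn, a small matrix proteoglycan, was at -0.87 (4701 and 1812). Of the transcripts in the list only Meg3 reached 2-fold. The part of fibroblasts and mesothelial cells in the list was not tested.

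Pseudogenes made up 137 of the measured genes, with a median of 0.13. Of these, 5 (3.65%) were at least 2-fold higher and 4 (2.92%) at least 2-fold lower, against 6.54% and 3.74% of all named genes. BC021767, next to the enamel protein gene Tuft1 (0.64), had 63.4 and 270 and was 6.04-fold higher (log2 2.60, and 1.90 with normexp). Cyp4b1-ps2 had 399 and 1323 and was 4.71-fold higher (2.24), while Cyp4b1, the fatty acid hydroxylase that it copies, had 851 and 970 (0.69). Tyms-ps had 1760 and 2924 (1.24), and its parent Tyms, the thymidylate synthase of proliferating cells, had 199 and 215 (0.62). Both pseudogenes differed more than their parent. Mageb16-ps1 had 25.9 and 63.2 (1.80), and Mageb16 was at 1.76 by its brightest probe and at 3.27 by its other probe. Gm18852, which overlaps Gm4070 (not measured), had 446 and 83.1 (-1.92), the lowest value of all noncoding genes, and -1.31 with normexp. Gm4956 had 771 and 243 (-1.16), and Gm6654, which overlaps Med21 (0.48), had 39.2 and 8.04 (-1.78, but -0.15 with normexp).

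For 19 pseudogenes named after a measured parent, 12 pairs lay within 0.5 of each other on the log2 scale and the median gap was 0.35. The Pearson correlation was 0.62 and the Spearman correlation 0.64, again as a description, since the copies share sequence and a probe for one can read the other. Kif4-ps was an exception, with 11.1 and 9.20 (0.24), while Kif4, a mitotic kinesin, had 670 and 1200.4 (1.35).

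The motifs searched in the printed windows were also counted over all promoters. A window was held for 386 measured noncoding genes, which had 432 windows. AGATAA lay in 9.72% of these and in 11.2% of all 32851 promoter windows, and TGATAA in 6.94% and 9.05%. CCAAT lay in 40.5% and 37.4%, TATAAA in 13.4% and 13.6%, and CCACACCC in 4.86% and 3.56%. Among the 31 windows of 24 noncoding genes at least 2-fold higher, both forms of the GATA factor site, the CACC box and the TATA box each lay in 3 and the CCAAT box in 15. In the 8 windows of genes at least 2-fold lower, AGATAA and CCACACCC each lay in 1, TGATAA in 2, TATAAA in 3 and CCAAT in 4. Both strands were searched, and AGATAA and TGATAA differ in their first base only. A match is a run of letters and not a bound site, and few windows stand behind these counts.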

How the data were processed

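The deposited scanner files hold spot intensity, background-subtracted by Agilent Feature Extraction 11.0.1.1 per the file headers; the submitters' processing notes name version 9.1. Per the labels' protocols, RNA came from a blood kit with separate lysis of red and white cells, globin message was reduced, and cRNA carried Cy3. The authors' deposited value table holds log2 values of 26049 probes, with a median of 5.68 in each column and a slope of 0.995 and 1.01 against the scanner values. The sources used here do not give its normalization.

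Flagged spots (145 in PBS, 148 in SiO2) and controls were left out, spots of a probe averaged, and log2 intensity scaled to each array's 75th percentile. Symbols and neighbours came from RefSeq (GRCm38.p6) by accession; 1016 of 1078 accessions matched. Neighbours were coding genes that overlapped, started head to head within 2 kb or lay within 10 kb. RefSeq calls 15 of the genes protein-coding. Of the genes, 83 had several probes.

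Named were the 12 largest differences per direction on both arrays, 5 per direction on 1 array, the 8 brightest, list members past 2-fold or nearest the median (up to 3), fixed transcripts such as Xist, and pairs with a named partner. Further genes were named after their values were seen. Members, 9 lists and the rule were chosen with earlier results of these data known. Under 8 alternatives each result was recomputed. R 4.3.3 with limma 3.58.1 (normexp), Python 3.11.15, numpy 2.4.6 and pandas 2.3.3 were used, tested on simulated data. The number of arrays, 2, limits the precision.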

Additional observations from a re-analysis of the deposited data

How the results depend on the processing

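Each group was 1 array, so no result has a check over animals, and dim genes carry most of the uncertainty. No paired analysis was possible because each group has 1 array and no test was made. With normexp the counts were 14 higher and 4 lower, 1 neighbour pair was beyond 2-fold the same way, and the medians were 0.43 for X inactivation and -0.017 for immune and blood genes. The direction turned for 4930594C11Rik (0.024), 4933432I03Rik (0.14) and A830082N09Rik (0.085); the offset of 50 draws dim signals together by construction.

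With B and T cell markers centred on 0, a shift of 0.40 for every gene, 108 genes were higher and 7 lower, and 13 neighbour pairs were beyond 2-fold the same way. The median of all noncoding genes was then 0.54, and the list medians were 0.79 (antisense), 0.12 (snoRNA hosts), 0.81 (miRNA hosts), 0.56 (X inactivation), 0.49 (imprinted), 0.95 (broadly expressed), 0.17 (immune and blood), 0.78 (mesenchyme) and 0.53 (pseudogenes).

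On the authors' deposited values, where 458 genes had a probe (440 by the brightest probe), 28 were higher and 21 lower, of which 24 and 12 were among the 43 and 16, and the medians were 0.32 for broadly expressed and -0.10 for mesenchyme genes. With no background filter and no bound (1067 genes), 92 were higher, 46 lower and 6 neighbour pairs beyond 2-fold the same way. Quantile normalization (38 higher, 19 lower), probes above background on both arrays (34 and 16), the mean over probes (41 and 16) and leaving out genes that RefSeq calls protein-coding (43 and 16) kept both counts within 1.5 times. Medians were called moved when they shifted by over 0.204, the 95th percentile of the spread of repeated spots.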

Other observations

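For 10 noncoding genes, probes of the same gene differed by more than 1 on the log2 scale, and the brightest probe stood for the gene. Besides NR_001592, 9930014A18Rik, which overlaps Lratd2 (-1.43), had 1 probe at -0.19 (signals 97.2 and 60.2) and 1 at 1.48 (50.1 and 98.1). Gm4759 had probes at 0.05 (348 and 253) and -1.24 (401 and 119). Emx2os had 0.40 (19.6 and 18.2) and, from a probe above background in PBS only, at least 0.86 lower (15.8 and 3.38). The position of these probes within their transcripts was not used here.

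RefSeq classes 4 of the measured genes as small nuclear RNA, Rnu3b1 (0.84) among them, and all were above 0. Rnu1b6, a copy of the U1 RNA of the spliceosome, had 1657 and 2061 (0.82), and Rnu12, the U12 RNA of the minor spliceosome, had 1433 and 1118 (0.15). Terc, the RNA template of telomerase, had 32.9 and 34.9 (0.59).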
